A study of Mus musculus with 19 samples.

Results

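Blood lymphocytes enter lymphoid organs through venules whose lining is made of high endothelial cells (HEC). The comparison described here asks in which genes HEC stand apart from the capillary cells of their own organ by a different amount in Peyer's patches and in peripheral lymph nodes. It was made as an interaction: HEC minus capillary cells in Peyer's patches, minus HEC minus capillary cells in peripheral nodes. The interaction used 13 of the 19 arrays and 19938 genes, taken from the 21789 of 28856 probe sets that carried 1 gene symbol. The 13 arrays were 3 of Peyer's patch HEC, 3 of Peyer's patch capillary cells, 4 of peripheral lymph node HEC and 3 of peripheral lymph node capillary cells. The other 6 arrays, of mesenteric node HEC from a MAdCAM1+/PNAd+ gate and a MAdCAM1+ gate and of mesenteric capillary cells, helped to set the spread and served as a side comparison. All cells were sorted from adult BALB/c mice aged 6 to 8 weeks, males and females mixed in equal parts, with no treatment or allele named. The gates of the Peyer's patch and peripheral cells are not given in the labels, so genes that encode or build a common sorting antigen, such as Madcam1 or the enzymes of PNAd synthesis, may restate the sort. The labels do not say whether the replicates came from separate animals, so the p-values rest on sample-to-sample spread that may be technical only.

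Lymphocytes are slowed on high endothelium by L-selectin, which binds sulphated, fucosylated and sialylated sugars known as the peripheral node addressin (PNAd), and in mucosal organs also by the integrin alpha4beta7, which binds MAdCAM1. Peripheral node venules are known for PNAd, and adult Peyer's patch venules for MAdCAM1. Capillaries exchange solutes and, near arteries, carry arterial genes such as Efnb2 and Gja5, while high endothelium is a specialised venous lining.

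Values are log2 signals that had been centred for each probe set, so only differences between arrays can be read and a value of 0 does not mean that a gene is silent. Below, the HEC difference means HEC minus capillary cells within an organ, and a gene is called more positive or more negative where the interaction passed an adjusted p of 0.05. All 9 high endothelial markers were higher in HEC and all 9 capillary markers were lower in HEC in both organs. These lists were chosen with earlier results of these data known, and some markers may restate the sort. The counts are therefore a description and no separate check of the sorted cells. Pecam1, a surface protein of all endothelium, had an interaction of 0.04 ± 0.14 (SE; adjusted p = 0.901). The 15 pan-endothelial markers had a median interaction of -0.25, with 4 positive and 11 negative, and 1 of them was called, more negative. Of these 15, 10 were lower in HEC in Peyer's patches and 7 in peripheral nodes, where 1 was higher. Several arrays stood apart from the rest of their group. Arrays 2 and 3 of Peyer's patch HEC differed from each other with an SD of 0.451 over all genes, against 0.196 to 0.312 for other pairs of replicates. Of the 9 high endothelial markers, 4 were more positive and 1 more negative, or 55.6% against 4.05% of all genes. Their median interaction was 0.745. Their mean was -0.76 to -0.26 on the Peyer's patch capillary arrays, below every peripheral capillary array. On peripheral capillary arrays 1 and 2 it was 1.22 and 1.08, against 0.32 on array 3. For genes chosen by the rules given with the processing, calls that were lost without this capillary pair are therefore named below. For other list members named in passing, such as Gucy1b1, Ptgis or Cdk1, the result in that setting is mostly not given. Their absence among the lost calls does not mean that their calls were kept.

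Of the 19938 genes, 808 (4.05%) had HEC differences that were unequal between the organs, 336 (1.69%) more positive and 472 (2.37%) more negative in Peyer's patches. At least 2-fold interactions numbered 134 (0.672%) more positive and 182 (0.913%) more negative. The HEC difference itself passed in 3881 genes (19.5%) in Peyer's patches and in 4897 genes (24.6%) in peripheral nodes. Over all genes the median interaction was 0.04 and the median size of an interaction, sign aside, was 0.20. Glycam1, Aplnr, Fjx1, Gucy1a1 and Btnl9 had the 5 most positive interactions, and Scgb3a1, Pdlim3, Plat, Fmo2 and Chrm3 the 5 most negative ones among the genes that could be named.

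**Figure D1:**
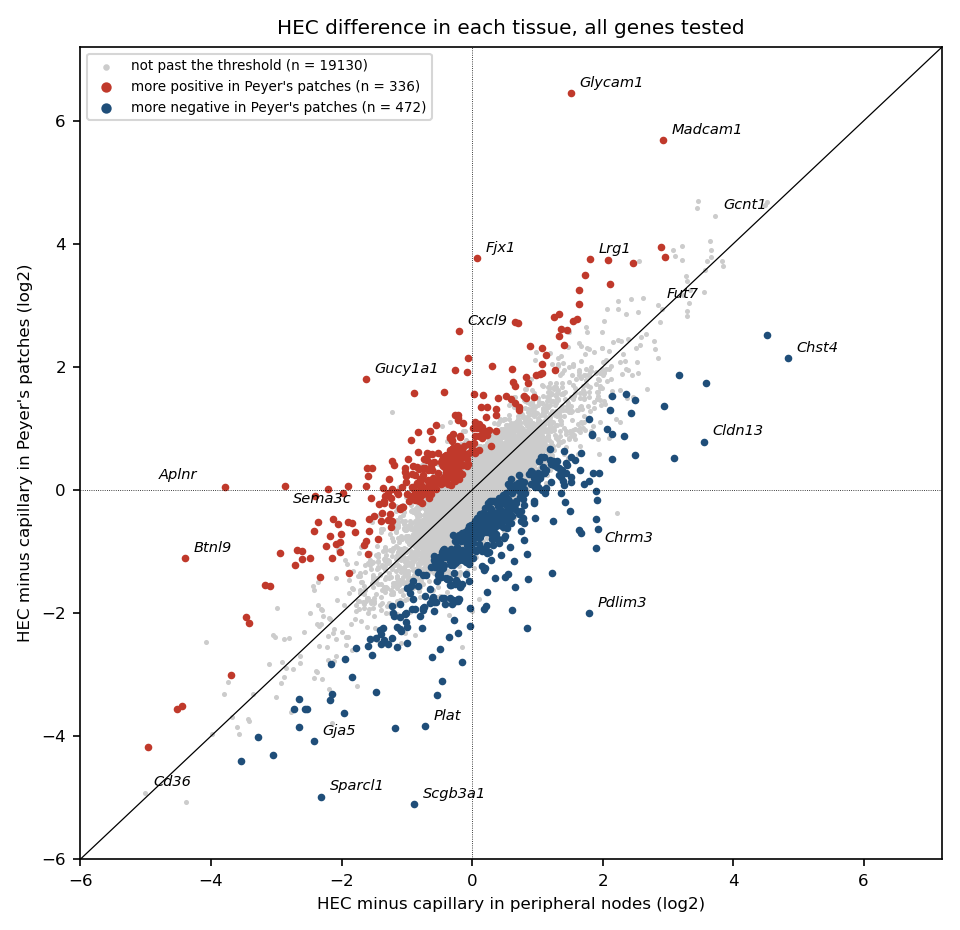
HEC minus capillary difference of each of the 19938 genes in Peyer's patches (vertical axis, log2) against peripheral nodes (horizontal axis, log2); the diagonal marks equal differences. The 336 red points lie above it and the 472 blue points below it, while Cd36, Fut7 and Gcnt1, which are grey, had interactions of 0.09, 0.16 and 0.74.

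An interaction can come from the high endothelial or from the capillary side, and both occurred. Among the 336 more positive genes, 113 were higher in Peyer's patch than in peripheral HEC with no called capillary difference, 129 were lower in Peyer's patch than in peripheral capillary cells with no called HEC difference, and 24 were both. Among the 472 more negative genes, 186 were lower in Peyer's patch HEC only, 182 were higher in Peyer's patch capillary cells only, and 27 were both. For scale, 1326 of all genes (6.65%) differed between Peyer's patch and peripheral HEC and 925 (4.64%) between Peyer's patch and peripheral capillary cells. These counts share arrays with the interaction and are a description. Set by direction within each organ, 126 of the more positive genes were lower in HEC in peripheral nodes but did not pass in Peyer's patches, 87 were higher in HEC in Peyer's patches but did not pass in peripheral nodes, 47 were higher in HEC in both and 42 lower in both. Of the more negative genes, 184 were lower in HEC in Peyer's patches but did not pass in peripheral nodes, 112 were higher in HEC in peripheral nodes but did not pass in Peyer's patches, 103 were lower in HEC in both and 33 higher in both.

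The arrays of mesenteric nodes did not enter the interaction. The genes below were chosen for their gap between Peyer's patches and peripheral nodes, and a wide gap makes it likelier that another organ lies inside it, so the counts are a description. Of the 134 more positive genes of at least 2-fold, the mesenteric HEC difference lay between the Peyer's patch and peripheral values in 120, nearer to Peyer's patches in 60 and nearer to peripheral nodes in 74, with medians of 0.47 in Peyer's patches, -0.02 in mesenteric nodes and -0.82 in peripheral nodes. Of the 182 more negative genes it lay between them in 169, nearer to Peyer's patches in 68 and nearer to peripheral nodes in 114, with medians of -1.15 in Peyer's patches, -0.32 in mesenteric nodes and 0.23 in peripheral nodes. Over all 19938 genes it lay between them in 52.6%.

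Addressin genes had interactions in both directions, and that of Glycam1 came from the capillary arrays and not from HEC. Madcam1, whose product binds alpha4beta7, and Glycam1, a mucin-like protein that presents sugars to L-selectin, had more positive interactions. Chst4, a sulphotransferase of PNAd synthesis in high endothelium, had a more negative one. Madcam1 lay at 5.75, 5.60 and 5.74 in Peyer's patch HEC and 0.00, -0.42 and 0.46 in Peyer's patch capillary cells. The peripheral Madcam1 values were 2.55, 1.73, 1.73 and 1.87 in HEC and -0.92, -0.62 and -1.34 in capillary cells. Every Peyer's patch HEC array was above every peripheral HEC array, and HEC and capillary arrays did not overlap in either organ. The HEC difference of Madcam1 was 5.68 ± 0.23 in Peyer's patches and 2.93 ± 0.21 in peripheral nodes, an interaction of 2.75 ± 0.31 (SE; adjusted p = 4.56e-05). In mesenteric nodes it was 6.23 ± 0.24.

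Chst4 lay at 1.98, 2.11 and 1.69 in Peyer's patch HEC and -0.10, -0.37 and -0.17 in Peyer's patch capillary cells. The peripheral Chst4 values were 6.08, 6.08, 6.13 and 5.91 in HEC and 2.19, 1.57 and -0.15 in capillary cells. Peripheral HEC were far above Peyer's patch HEC, and peripheral capillary arrays 1 and 2 lay above array 3 and above all Peyer's patch capillary arrays. The HEC difference was 2.14 ± 0.36 in Peyer's patches and 4.84 ± 0.34 in peripheral nodes, an interaction of -2.71 ± 0.50 (SE; adjusted p = 0.00392), and without peripheral capillary arrays 1 and 2 the interaction was -4.06 (adjusted p = 1.72e-07). Glycam1 went the other way through its capillary arrays, at 5.18, 5.08 and 4.78 in Peyer's patch HEC and -0.66, -2.26 and -1.38 in Peyer's patch capillary cells. The peripheral Glycam1 values were 4.99, 5.02, 5.07 and 4.60 in HEC and 4.42, 4.12 and 1.70 in capillary cells. The HEC arrays of both organs overlapped, whereas the Peyer's patch capillary arrays were all below the peripheral ones, of which array 3 was the lowest. Its interaction was 4.93 ± 0.69 (SE; adjusted p = 3.48e-04) and fell to 3.23 (adjusted p = 0.00225) without peripheral capillary arrays 1 and 2. Those arrays also carried the higher high endothelial marker means. Glycam1 and Chst4 are themselves genes of high endothelium, and their own part in these means was not separated. Over 76 genes high in Peyer's patch and mesenteric HEC, peripheral capillary arrays 1 and 2 lay above array 3 by medians of 0.42 and 0.31. The part of this in the Glycam1 and Chst4 values was not tested.

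The 300 bases around the start of these 3 genes (250 before and 50 after, RefSeq, build GRCm38.p6, printed 5′ to 3′ along the gene's strand) are shown. They were chosen for their part in the addressins that lymphocytes bind. Their products are MAdCAM1 itself, a carrier of PNAd sugars and an enzyme of PNAd synthesis. Madcam1 is at chr10:79664309-79664608, plus strand, Glycam1 at chr15:103565032-103565331, minus strand and Chst4 at chr8:110039285-110039584, minus strand. Capitals mark the reverse complement of AGGTCA, the hexamer read by nuclear receptors such as the venous factor NR2F2, which was searched on both strands beside the NKX2 letters TNAAGTG and the TATA letters TATAAA.
Madcam1: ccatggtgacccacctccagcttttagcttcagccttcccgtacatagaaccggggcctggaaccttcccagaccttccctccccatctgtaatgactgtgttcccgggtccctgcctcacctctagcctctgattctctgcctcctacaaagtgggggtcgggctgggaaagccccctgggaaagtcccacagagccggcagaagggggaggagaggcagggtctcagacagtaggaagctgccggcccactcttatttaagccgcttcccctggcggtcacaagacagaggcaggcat
Glycam1: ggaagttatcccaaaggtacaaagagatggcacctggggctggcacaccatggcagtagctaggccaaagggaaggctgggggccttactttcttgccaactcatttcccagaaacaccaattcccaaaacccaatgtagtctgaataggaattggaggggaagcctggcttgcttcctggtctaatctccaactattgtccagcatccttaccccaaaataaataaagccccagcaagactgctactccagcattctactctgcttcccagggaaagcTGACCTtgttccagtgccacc
Chst4: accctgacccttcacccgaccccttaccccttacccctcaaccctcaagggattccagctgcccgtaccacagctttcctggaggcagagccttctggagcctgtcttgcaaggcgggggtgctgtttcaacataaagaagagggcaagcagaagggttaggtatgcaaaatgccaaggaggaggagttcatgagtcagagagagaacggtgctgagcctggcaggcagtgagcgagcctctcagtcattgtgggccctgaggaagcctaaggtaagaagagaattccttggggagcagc
Only the Glycam1 window held a match, to AGGTCA at position 280. AGGTCA stands in 16.3% of all 32851 promoter windows of this length, TNAAGTG in 11.5% and TATAAA in 13.6%. Among called genes with an entry, AGGTCA stood in 12.4% of 259 more positive and 17.4% of 368 more negative genes, against 16.3% of 15614 measured genes, and TNAAGTG in 8.11% and 12.2%, against 12.1%. A match in a window is a description and not a binding site.

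Of the 21 measured genes of L-selectin ligand synthesis, 1 was more positive (Glycam1) and 3 were more negative (Chst4, Gmds and Emcn), or 19% of the list against 4.05% of all genes, and the median interaction was 0.08 against 0.04 over all genes. Gmds, the first enzyme from GDP-mannose to GDP-fucose, was higher in HEC by 1.00 ± 0.16 in Peyer's patches and 2.06 ± 0.15 in peripheral nodes, an interaction of -1.07 ± 0.23 (SE; adjusted p = 0.011). Emcn, the sialomucin endomucin, was lower in HEC by more in Peyer's patches, with an interaction of -0.86 ± 0.15 (SE; adjusted p = 0.00232). Other core enzymes did not pass although both organs showed a large HEC difference. Fut7, the fucosyltransferase of selectin ligands, had HEC differences of 3.01 ± 0.18 in Peyer's patches and 2.85 ± 0.17 in peripheral nodes, with an interaction of 0.16 ± 0.24 (SE; adjusted p = 0.728). Gcnt1, which builds core 2 branches, had an interaction of 0.74 ± 0.30 (SE; adjusted p = 0.193) and passed in 1 of 23 alternative settings, and Chst2, a second sulphotransferase, had one of 0.36 ± 0.19 (SE; adjusted p = 0.304).

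St6gal1, which adds the alpha2,6-linked sialic acid bound by the B cell lectin CD22, lay at 0.84, 0.56 and 1.26 in Peyer's patch HEC and 0.00, -0.10 and -0.12 in Peyer's patch capillary cells. The peripheral St6gal1 values were -0.62, -0.71, -0.45 and -0.44 in HEC and -0.87, -0.64 and -0.73 in capillary cells. Every Peyer's patch HEC array was above all other arrays, and its interaction of 0.77 ± 0.19 (SE; adjusted p = 0.0271) passed in 13 of 23 alternative settings, with an adjusted p of up to 0.193 after quantile normalization. Of the 11 genes of sialic acid synthesis and linkage, 1 was more positive (St6gal1) and 1 more negative (St6galnac4, a sialyltransferase, -0.72 ± 0.14 (SE; adjusted p = 0.00457)). These were 18.2% of the list, against 4.05% of all genes. The list had 1 called member without Peyer's patch HEC array 1, Peyer's patch capillary array 2 or 3, or peripheral capillary array 2 or 3, and 5 without Peyer's patch HEC array 3. Of 18 leukocyte adhesion molecules, 2 were more positive (11.1% of the list), Madcam1 and Nectin2, a nectin adhesion molecule, at 0.59 ± 0.13 (SE; adjusted p = 0.0179). The adhesion list had 1 called member without Peyer's patch HEC array 1 and 6 without array 3. Calls lost without the capillary pair were those of St6gal1 (adjusted p = 0.139) and Nectin2 (adjusted p = 0.16). Nkx2-3, the homeobox factor needed for mucosal Madcam1 in mice, was higher in Peyer's patches in both cell types, by 2.02 ± 0.17 in HEC and 2.27 ± 0.18 in capillary cells, so that its interaction was -0.25 ± 0.25 (SE; adjusted p = 0.585).

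**Figure D2:**
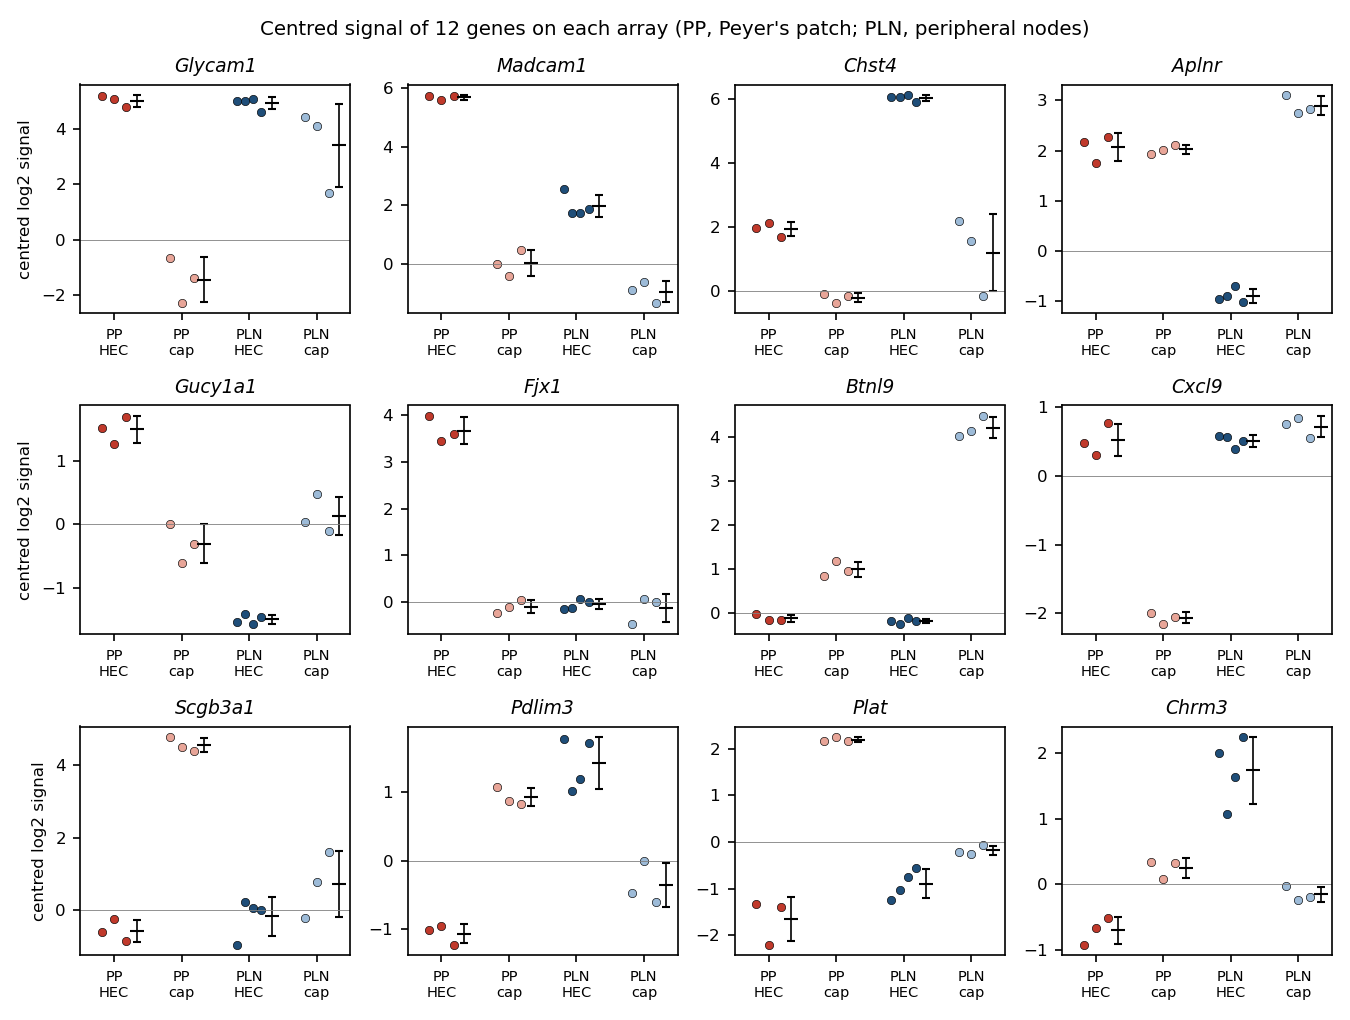
Centred log2 signal of 12 genes on each array; points are arrays (3, 3, 4 and 3 in the order of the axis, with Peyer's patch HEC and capillary cells left of peripheral HEC and capillary cells), and the bar beside each group is its mean ± SD. Madcam1, Fjx1 and Gucy1a1 were highest in Peyer's patch HEC, while Glycam1 and Cxcl9 differed on the capillary side, where Peyer's patch arrays were low.

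Of 18 listed chemokines, 3 were more positive (Cxcl9, Cxcl10 and Cx3cl1) and 1 was more negative (Cxcl12), or 22.2% against 4.05% of all genes, with a median interaction of 0.30. Cxcl9, a ligand of CXCR3 on activated T cells, lay at 0.49, 0.31 and 0.77 in Peyer's patch HEC and -2.0, -2.15 and -2.05 in Peyer's patch capillary cells. The peripheral Cxcl9 values were 0.58, 0.57, 0.39 and 0.51 in HEC and 0.76, 0.85 and 0.55 in capillary cells. The 3 Peyer's patch capillary arrays stood alone, with all other arrays between 0.31 and 0.85, and the interaction was 2.79 ± 0.23 (SE; adjusted p = 1.28e-06). Cxcl10, another ligand of CXCR3, differed instead in HEC, at 1.60, 1.73 and 2.02 in Peyer's patch HEC and 0.00, -0.33 and -0.45 in Peyer's patch capillary cells. The peripheral Cxcl10 values were 0.70, 0.85, 0.37 and 0.76 in HEC and -0.49, -0.17 and -0.52 in capillary cells. The interaction of Cxcl10 was 0.98 ± 0.21 (SE; adjusted p = 0.0122). Cx3cl1, a membrane-bound chemokine, was lower in HEC in both organs, by less in Peyer's patches (-2.17 ± 0.17) than in peripheral nodes (-3.42 ± 0.16), with an interaction of 1.25 ± 0.23 (SE; adjusted p = 0.00441). Cxcl12, a broad lymphocyte attractant, had an interaction of -0.88, and the platelet chemokine Pf4, which was kept in another list, is described below. Cxcl13, the B cell attractant of follicles, had an interaction of 0.27 ± 0.37 (SE; adjusted p = 0.691). The list had 2 called members, 1 in each direction, without the capillary pair, where the calls lost included Cxcl10 (adjusted p = 0.135) and Cx3cl1 (adjusted p = 0.0849).

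Both called receptors of the 7 chemokine receptors of endothelium (28.6%, against 4.05% of all genes) are atypical ones that bind chemokine without classical signalling. Ackr1, which carries chemokines across venules, lay at 3.61, 3.43 and 3.67 in Peyer's patch HEC and 0.15, -0.66 and 0.16 in Peyer's patch capillary cells. The peripheral Ackr1 values were 3.23, 3.40, 3.74 and 3.42 in HEC and 0.89, 1.05 and 1.03 in capillary cells. The HEC arrays of both organs overlapped and the Peyer's patch capillary arrays were below the peripheral ones, with an interaction of 1.23 ± 0.26 (SE; adjusted p = 0.0125) that was 1.27 (adjusted p = 0.0909) and no longer called without the capillary pair. Ackr3, a scavenger of CXCL12, was lower in HEC by -2.55 ± 0.14 in Peyer's patches and -1.14 ± 0.13 in peripheral nodes, with an interaction of -1.41 ± 0.19 (SE; adjusted p = 3.31e-04). Of 14 genes of oxysterol and lysophospholipid attractants, S1pr3, a sphingosine 1-phosphate receptor, was more positive at 1.12 ± 0.23 (SE; adjusted p = 0.00988). Sphk1, a kinase that makes that lipid, was more negative at -0.63 ± 0.17 (SE; adjusted p = 0.0411) and passed in 9 of 23 alternatives, not in the one without the capillary pair, where the adjusted p of Sphk1 was 0.128. Called members were 14.3% of the attractant list, against 4.05% of all genes, and 1 to 3 in number with any single array left out.

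Arterial genes were lower in HEC in both organs, and by more in Peyer's patches. Of 23 arterial and Notch genes, 11 were more negative and 1 more positive, 52.2% of the list against 4.05% of all genes, with a median interaction of -0.66. In each organ 21 of the 23 were lower in HEC. Gja5, a connexin of arterial gap junctions, lay at -0.49, -0.56 and -0.57 in Peyer's patch HEC and 3.42, 3.60 and 3.61 in Peyer's patch capillary cells. The peripheral Gja5 values were -0.40, -0.52, -0.38 and -0.63 in HEC and 1.83, 1.97 and 2.00 in capillary cells. The HEC arrays of both organs overlapped, while every Peyer's patch capillary array exceeded every peripheral one, and the interaction was -1.66 ± 0.24 (SE; adjusted p = 5.16e-04).

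Bmx, a kinase of arterial endothelium, had an interaction of -1.20 ± 0.16 (SE; adjusted p = 2.51e-04), again with HEC arrays near each other (a Peyer's patch minus peripheral HEC difference of 0.00 ± 0.11) and a capillary difference of 1.20 ± 0.12. Hey2, a Notch target, had an interaction of -1.09 ± 0.28 (SE; adjusted p = 0.035) and passed in 12 of 23 alternatives. The other more negative members were Sox17, Hes1, Jag1, Nrp1, Unc5b, Mgp, Gja4 and Efnb2, between -1.03 and -0.66, and the more positive one was the Notch target Heyl at 0.95. Averaged over the 23 genes, the centred signal was -0.57 to -0.53 on the Peyer's patch HEC arrays, 1.63 to 1.67 on the Peyer's patch capillary arrays, -0.53 to -0.42 on the peripheral HEC arrays and 1.16 to 1.23 on the peripheral capillary arrays, so both groups of capillary cells and not the HEC were set apart. The count of 12 called members was 8 to 13 with any single array left out and 6, all more negative, without the capillary pair, where Hey2 (0.0688), Gja4 (0.179) and Efnb2 (0.137) were among those with an adjusted p above 0.05.

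Of 11 venous genes, 4 were more positive and 2 more negative, or 54.5% against 4.05% of all genes, with a median interaction of -0.38. Aplnr, the apelin receptor of venous and sprouting endothelium, lay at 2.17, 1.75 and 2.27 in Peyer's patch HEC and 1.94, 2.02 and 2.12 in Peyer's patch capillary cells. The peripheral Aplnr values were -0.96, -0.89, -0.69 and -1.0 in HEC and 3.11, 2.75 and 2.83 in capillary cells. In peripheral nodes HEC and capillary arrays were far apart, while in Peyer's patches they overlapped. The HEC difference was 0.04 ± 0.15 in Peyer's patches (adjusted p = 0.908) and -3.78 ± 0.14 in peripheral nodes, an interaction of 3.82 ± 0.21 (SE; adjusted p = 1.18e-08), and it stayed between 3.71 and 4.13 in all 23 alternatives.

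Lrg1, a secreted glycoprotein of TGF-beta signalling, lay at 3.62, 3.71 and 3.66 in Peyer's patch HEC and -0.37, 0.09 and 0.00 in Peyer's patch capillary cells. The peripheral Lrg1 values were 3.42, 3.62, 3.51 and 3.52 in HEC and 1.59, 1.67 and 1.85 in capillary cells. The HEC arrays of Lrg1 lay close together, those of Peyer's patches just above the peripheral ones, and its Peyer's patch capillary arrays were low, for an interaction of 1.94 ± 0.20 (SE; adjusted p = 1.26e-05). Nr2f2, the transcription factor that sets venous identity, lay at 1.25, 0.95 and 1.38 in Peyer's patch HEC and -1.31, -1.38 and -1.26 in Peyer's patch capillary cells. The peripheral Nr2f2 values were 0.43, 0.71, 0.81 and 0.99 in HEC and -0.62, -0.40 and -0.78 in capillary cells. The Peyer's patch capillary arrays were the lowest of all. Its interaction was 1.17 ± 0.21 (SE; adjusted p = 0.00317), against 0.99 (adjusted p = 0.0753) without the capillary pair, a setting in which 3 venous genes were called. Tll1, a metalloprotease of the tolloid family, ran the other way at 0.61, 0.70 and 1.24 in Peyer's patch HEC and 0.79, 0.90 and 0.92 in Peyer's patch capillary cells. The peripheral Tll1 values were 1.61, 1.28, 1.91 and 1.59 in HEC and -0.15, -0.40 and -0.34 in capillary cells. The interaction of Tll1 was -1.91 ± 0.23 (SE; adjusted p = 1.02e-04). Peyer's patch HEC and capillary arrays overlapped for it, and in peripheral nodes all HEC arrays were above the capillary arrays.

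Among 25 genes of VEGF, angiopoietin and apelin signalling, 3 were more positive (Aplnr, Igfbp3 and Nid2) and 5 more negative (Esm1, Vegfc, Vegfa, Nrp1 and Nrp2). These were 32% of the list, against 4.05% of all genes. Esm1, a proteoglycan of VEGF-responsive tip cells, had HEC differences of -4.32 ± 0.19 in Peyer's patches and -3.05 ± 0.17 in peripheral nodes and an interaction of -1.26 ± 0.25 (SE; adjusted p = 0.00786). Vegfc, a growth factor of lymphatic vessels, had an interaction of -1.15 ± 0.23 (SE; adjusted p = 0.00843). The list had 5 called members without Peyer's patch capillary array 2 and 3 without the capillary pair, where the calls lost included Esm1 (adjusted p = 0.134) and Vegfc (adjusted p = 0.142).

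The largest vasoactive difference lay in nitric oxide sensing. Gucy1a1 encodes the alpha subunit of soluble guanylate cyclase, the nitric oxide receptor, and lay at 1.52, 1.27 and 1.70 in Peyer's patch HEC and 0.00, -0.62 and -0.31 in Peyer's patch capillary cells. The peripheral Gucy1a1 values were -1.54, -1.41, -1.57 and -1.47 in HEC and 0.04, 0.47 and -0.11 in capillary cells. Peyer's patch HEC were above all other arrays and peripheral HEC were below all others. HEC exceeded capillary cells by 1.80 ± 0.16 in Peyer's patches and lay below them, with a difference of -1.63 ± 0.15 in peripheral nodes, an interaction of 3.43 ± 0.22 (SE; adjusted p = 8.49e-08). Its partner subunit Gucy1b1 was also more positive, at 1.38. Of 28 vasoactive genes, 6 were more positive and 2 more negative, or 28.6% against 4.05% of all genes, with a median interaction of 0.21. The others were the phosphodiesterase Pde3a (0.89), the endothelin receptor Ednrb (0.78), the prostacyclin synthase Ptgis (1.13), the prostaglandin synthase Ptgds (-0.93), Ramp3 and Edn1. Ramp3, a partner of adrenomedullin receptors, had an interaction of 1.53 ± 0.30 (SE; adjusted p = 0.00655), and Edn1, the vasoconstrictor endothelin, one of -1.44 ± 0.36 (SE; adjusted p = 0.0328) that passed in 11 of 23 alternatives. The list had 4 called members without Peyer's patch capillary array 3 and 5 without Peyer's patch HEC array 1, Peyer's patch capillary array 1 or peripheral capillary array 2 or 3. It had 2, both more positive, without the capillary pair, where the calls lost included Ramp3 (adjusted p = 0.0952) and Edn1 (adjusted p = 0.153).

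Fjx1, whose Drosophila counterpart four-jointed acts in planar polarity, lay at 3.98, 3.44 and 3.59 in Peyer's patch HEC and -0.23, -0.11 and 0.04 in Peyer's patch capillary cells. The peripheral Fjx1 values were -0.15, -0.13, 0.07 and 0.00 in HEC and -0.46, 0.07 and 0.00 in capillary cells. The 3 Peyer's patch HEC arrays stood above all others, which overlapped, and the interaction was 3.69 ± 0.21 (SE; adjusted p = 2.41e-08). Islr, a secreted leucine-rich repeat protein, Pld5, a member of the phospholipase D family, and Adgrg6, an adhesion G protein-coupled receptor, were likewise higher in Peyer's patch than in peripheral HEC, by 2.04 ± 0.15, 1.96 ± 0.17 and 2.45 ± 0.23. Their interactions were 2.21 ± 0.22 (SE; adjusted p = 1.07e-05) for Islr, 2.07 ± 0.25 (SE; adjusted p = 1.02e-04) for Pld5 and 2.02 ± 0.34 (SE; adjusted p = 0.00182) for Adgrg6. In mesenteric nodes the HEC difference of Fjx1 was 1.62 ± 0.17.

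Other large positive interactions came from genes that were higher in peripheral than in Peyer's patch capillary cells. Btnl9, a butyrophilin-like surface protein, lay at -0.02, -0.15 and -0.16 in Peyer's patch HEC and 0.84, 1.19 and 0.97 in Peyer's patch capillary cells. The peripheral Btnl9 values were -0.17, -0.23, -0.12 and -0.17 in HEC and 4.04, 4.14 and 4.49 in capillary cells. HEC of both organs overlapped and peripheral capillary arrays were the highest of all, with an interaction of 3.28 ± 0.17 (SE; adjusted p = 1.02e-08). Sema3c, a secreted guidance protein, lay at -0.41, -0.08 and -0.60 in Peyer's patch HEC and -0.19, -0.41 and -0.66 in Peyer's patch capillary cells. The peripheral Sema3c values were -0.82, -0.60, -0.58 and -0.72 in HEC and 2.34, 2.36 and 1.87 in capillary cells. The other 3 groups overlapped below 0, while the peripheral capillary arrays were far above them.

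Sema3c had an interaction of 2.93 ± 0.21 (SE; adjusted p = 1.66e-07), and Gpr37, an orphan-class receptor, had the same arrangement with 2.22 ± 0.18 (SE; adjusted p = 1.26e-06). In mesenteric nodes the HEC difference was -4.71 ± 0.13 for Btnl9, -2.78 ± 0.16 for Sema3c and -1.34 ± 0.14 for Gpr37. The peripheral HEC differences of these genes were -4.39 ± 0.11, -2.87 ± 0.14 and -2.20 ± 0.13. Olfml2a, an olfactomedin-like matrix protein, was high in both HEC groups and in peripheral capillary cells and low in Peyer's patch capillary cells, by -2.25 ± 0.20 against peripheral ones, with an interaction of 2.01 ± 0.27 (SE; adjusted p = 2.69e-04). Angptl4, an inhibitor of lipoprotein lipase, had an interaction of 2.22 ± 0.48 (SE; adjusted p = 0.0131), but its arrays varied within groups, from -0.71 to 0.73 in peripheral HEC.

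The most negative interaction belonged to Scgb3a1, a small secreted secretoglobin, which lay at -0.59, -0.24 and -0.84 in Peyer's patch HEC and 4.78, 4.50 and 4.40 in Peyer's patch capillary cells. The peripheral Scgb3a1 values were -0.94, 0.24, 0.07 and 0.00 in HEC and -0.21, 0.79 and 1.61 in capillary cells. The Peyer's patch capillary arrays were far above all others, and the peripheral HEC arrays overlapped both other groups. The HEC difference was -5.11 ± 0.35 in Peyer's patches, against -0.89 ± 0.32 in peripheral nodes, an interaction of -4.22 ± 0.47 (SE; adjusted p = 4.31e-05). In mesenteric nodes the HEC difference of Scgb3a1 was -3.69 ± 0.37. Plat, Prom1, Pcx and Cyp26b1 were also highest on every Peyer's patch capillary array.

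Plat, tissue plasminogen activator, lay at -1.34, -2.20 and -1.40 in Peyer's patch HEC and 2.16, 2.25 and 2.16 in Peyer's patch capillary cells. The peripheral Plat values were -1.25, -1.02, -0.76 and -0.55 in HEC and -0.22, -0.25 and -0.06 in capillary cells. The interaction of Plat was -3.12 ± 0.30 (SE; adjusted p = 7.41e-06). Prom1, the membrane protein prominin, was higher in Peyer's patch than in peripheral capillary cells by 2.72 ± 0.12 and had an interaction of -2.69 ± 0.17 (SE; adjusted p = 4.85e-08). Pcx, pyruvate carboxylase, differed between the capillary cells by 2.49 ± 0.10 and Cyp26b1, which clears retinoic acid, by 3.08 ± 0.18. Their interactions were -2.64 ± 0.14 (SE; adjusted p = 1.08e-08) and -2.64 ± 0.24 (SE; adjusted p = 4.39e-06). In mesenteric nodes the HEC difference was -1.20 ± 0.23 for Plat, -2.06 ± 0.13 for Prom1, -0.58 ± 0.11 for Pcx and -0.22 ± 0.19 for Cyp26b1. Clca3a1, of the calcium-activated chloride channel accessory family, was high in both Peyer's patch groups, with an HEC difference of -0.64 ± 0.28 there and 1.92 ± 0.26 in peripheral nodes, and an interaction of -2.56 ± 0.38 (SE; adjusted p = 6.64e-04).

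A second group of negative interactions came from HEC. Ly6e, a GPI-anchored surface protein, had a Peyer's patch minus peripheral HEC difference of -3.39 ± 0.12, and Sparcl1, a matricellular protein, one of -2.68 ± 0.14. Sparcl1 lay at -3.63, -3.56 and -3.58 in Peyer's patch HEC and 1.38, 1.43 and 1.38 in Peyer's patch capillary cells. The peripheral Sparcl1 values were -1.21, -0.72, -0.60 and -1.11 in HEC and 1.55, 1.34 and 1.31 in capillary cells. Capillary arrays of both organs overlapped, and all HEC arrays were below them, the Peyer's patch ones by most. The interactions were -2.80 ± 0.17 (SE; adjusted p = 4.85e-08) for Ly6e and -2.67 ± 0.20 (SE; adjusted p = 3.79e-07) for Sparcl1. Cldn13, a claudin, lay at 0.22, 0.37 and 0.48 in Peyer's patch HEC and -0.49, -0.56 and -0.23 in Peyer's patch capillary cells. The peripheral Cldn13 values were 3.42, 3.19, 2.89 and 3.56 in HEC and -0.34, -0.31 and -0.23 in capillary cells. Peripheral HEC stood above every other array, and the interaction was -2.77 ± 0.20 (SE; adjusted p = 2.07e-07).

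Pf4, a chemokine of platelets, was highest in peripheral HEC, at 0.32, 0.27 and 0.46 in Peyer's patch HEC and -0.25, -0.16 and -0.13 in Peyer's patch capillary cells. The peripheral Pf4 values were 3.83, 2.85, 3.34 and 4.02 in HEC and 0.45, 0.80 and -0.02 in capillary cells. The interaction of Pf4 was -2.58 ± 0.31 (SE; adjusted p = 1.02e-04). Pf4 was the 1 called gene of 5 erythroid and platelet markers, or 20% against 4.05% of all genes. The mean of these 5, Pf4 included, was 0.01 to 0.20 on the Peyer's patch HEC arrays and -0.12 to 0.02 on the Peyer's patch capillary arrays. It was 0.57 to 0.76 on the peripheral HEC arrays and 0.05 to 0.39 on the peripheral capillary arrays. Since Pf4 itself enters this mean, the mean is no separate sign of platelets, and their part in Pf4 was not tested. F8, coagulation factor VIII, had an HEC difference of 1.73 ± 0.29 in Peyer's patches and 3.58 ± 0.28 in peripheral nodes and an interaction of -1.85 ± 0.40 (SE; adjusted p = 0.0131). Thbd, the thrombin receptor thrombomodulin, was lower in HEC by more in Peyer's patches, with an interaction of -1.20 ± 0.22 (SE; adjusted p = 0.00439). With Plat these made 3 more negative genes of 22 in complement and coagulation, and Cfb, complement factor B, was the more positive one at 0.83 and was not called without the capillary pair. The called share of that list was 18.2%, against 4.05% of all genes.

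In 65 of the 808 called genes HEC were past the threshold on opposite sides of capillary cells in the organs, 29 higher in HEC in Peyer's patches and lower in HEC in peripheral nodes and 36 the reverse. Lgals1, the galactoside-binding lectin galectin, lay at 0.61, 0.74 and 0.42 in Peyer's patch HEC and -1.05, -1.01 and -0.90 in Peyer's patch capillary cells. The peripheral Lgals1 values were -1.13, -1.36, -0.87 and -0.72 in HEC and -0.46, 0.15 and -0.10 in capillary cells. Peyer's patch HEC were above every other array, and the HEC difference was 1.58 ± 0.18 in Peyer's patches and -0.88 ± 0.17 in peripheral nodes, an interaction of 2.46 ± 0.25 (SE; adjusted p = 1.23e-05). Emp3, an epithelial membrane protein family member, had HEC differences of 0.81 ± 0.18 in Peyer's patches and -0.94 ± 0.17 in peripheral nodes and an interaction of 1.75 ± 0.25 (SE; adjusted p = 4.16e-04). Steap4, a metalloreductase, had 0.96 ± 0.18 in Peyer's patches and -0.64 ± 0.16 in peripheral nodes, with an interaction of 1.60 ± 0.24 (SE; adjusted p = 7.04e-04).

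In the other direction, Pdlim3, an actin-associated PDZ and LIM protein, lay at -1.02, -0.96 and -1.23 in Peyer's patch HEC and 1.08, 0.87 and 0.83 in Peyer's patch capillary cells. The peripheral Pdlim3 values were 1.78, 1.03, 1.19 and 1.72 in HEC and -0.47, 0.00 and -0.60 in capillary cells. Peyer's patch HEC were the lowest arrays, whereas peripheral HEC were above peripheral capillary cells. The HEC difference was -2.0 ± 0.19 in Peyer's patches and 1.79 ± 0.18 in peripheral nodes, an interaction of -3.79 ± 0.26 (SE; adjusted p = 1.26e-07). Chrm3, the M3 muscarinic acetylcholine receptor, lay at -0.92, -0.66 and -0.52 in Peyer's patch HEC and 0.34, 0.07 and 0.33 in Peyer's patch capillary cells. The peripheral Chrm3 values were 2.00, 1.07, 1.64 and 2.24 in HEC and -0.02, -0.25 and -0.20 in capillary cells. Peyer's patch HEC were again lowest and peripheral HEC highest, with an interaction of -2.84 ± 0.31 (SE; adjusted p = 2.77e-05).

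Fmo2, a flavin-containing monooxygenase, lay at -1.47, -1.44 and -1.26 in Peyer's patch HEC and 0.71, 1.18 and 0.67 in Peyer's patch capillary cells. The peripheral Fmo2 values were 0.00, 0.74, 0.76 and 0.66 in HEC and -0.06, -0.46 and -0.38 in capillary cells. Peyer's patch HEC were the lowest arrays of Fmo2, whose interaction was -3.08 ± 0.24 (SE; adjusted p = 6.68e-07). Lrrc3b, a leucine-rich repeat membrane protein, had HEC differences of -1.34 ± 0.14 in Peyer's patches and 1.23 ± 0.13 in peripheral nodes, and Mvb12b, an ESCRT component of endosomal sorting, of -1.44 ± 0.21 in Peyer's patches and 0.85 ± 0.20 in peripheral nodes. Their interactions were -2.57 ± 0.19 (SE; adjusted p = 3.79e-07) and -2.29 ± 0.29 (SE; adjusted p = 1.50e-04). The count of 65 was 44 to 160 with any single array left out.

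**Figure D3:**
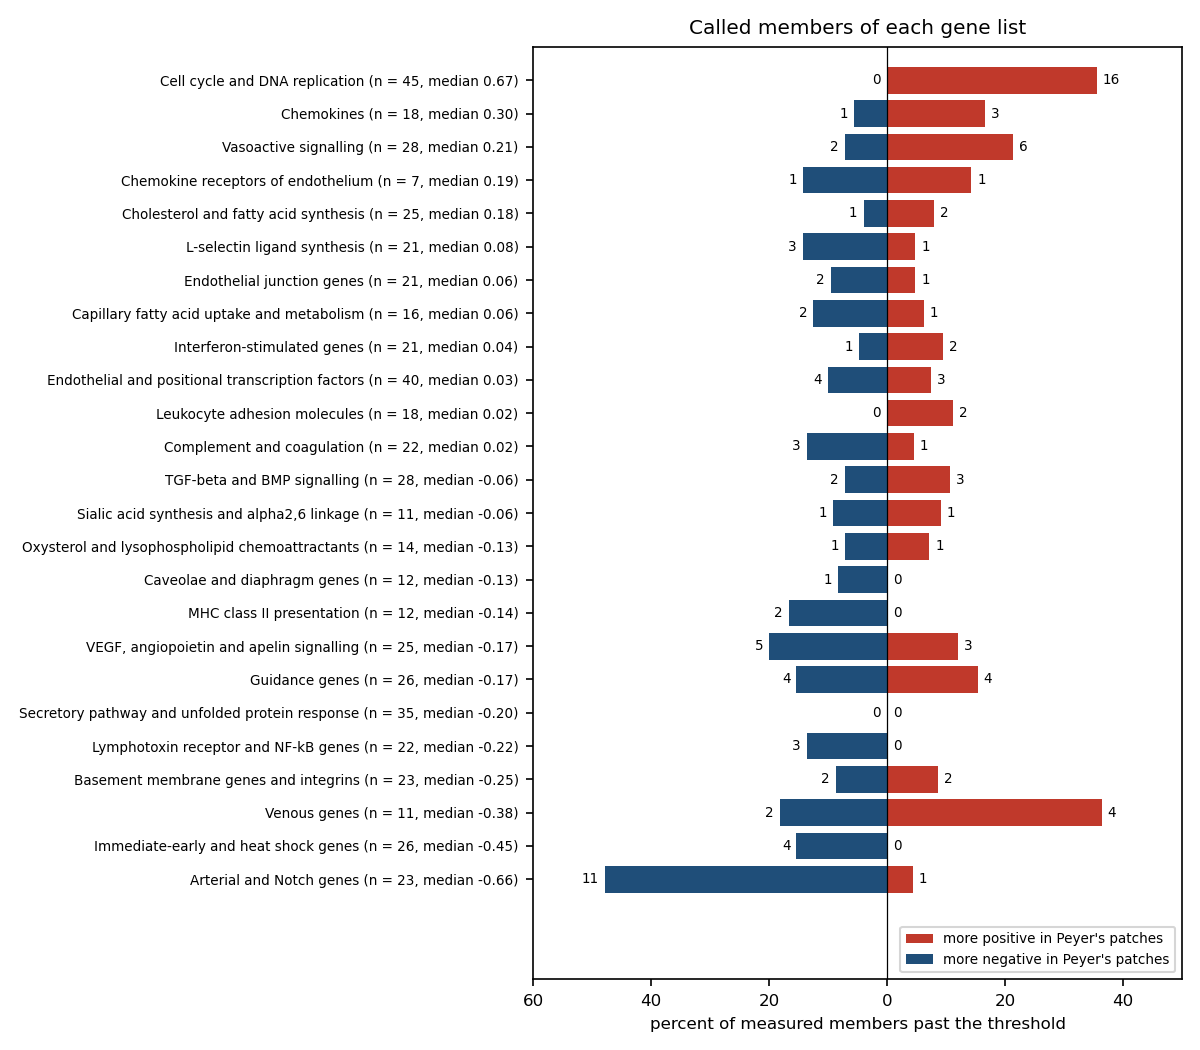
Percent of the measured members of each of 25 gene lists that were more positive (red, to the right) or more negative (blue, to the left) in Peyer's patches, with counts at the bar ends and lists ordered by median interaction. The cell cycle list had 16 more positive and 0 more negative members and the arterial list 1 and 11, against 1.69% and 2.37% of all genes.

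Of the 25 pathway lists, that of proliferation had the highest median interaction, at 0.67. Of its 45 cell cycle and DNA replication genes, 16 were more positive and 0 more negative in limma (35.6% called, against 4.05% of all genes), with 34 positive and 1 negative at an unadjusted p under 0.05. In Peyer's patches 16 were higher and 1 lower in HEC, and in peripheral nodes 0 were higher and 12 lower. Ccna2, a cyclin of S phase and mitosis, lay at 0.84, 0.05 and 1.29 in Peyer's patch HEC and 0.23, -0.48 and -0.42 in Peyer's patch capillary cells. The peripheral Ccna2 values were 0.12, -0.69, -0.18 and 0.23 in HEC and 1.26, 0.54 and 0.29 in capillary cells. Its arrays spread widely within Peyer's patch HEC, where array 2 was low, and the groups overlapped, with an interaction of 1.77 ± 0.43 (SE; adjusted p = 0.0276). Ube2c, which marks mitotic proteins for destruction, had an interaction of 1.49 ± 0.25 (SE; adjusted p = 0.00168), and Nusap1, a spindle protein, had HEC differences on opposite sides of 0 and an interaction of 1.44 ± 0.24 (SE; adjusted p = 0.00199).

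The other 13 called members, among them Cdk1, Plk1, Kif11, Aurkb, Rrm2 and Mcm7, had interactions between 0.66 and 1.38. The mean of the 45 genes was 0.34, 0.06 and 0.51 on the Peyer's patch HEC arrays, -0.04, -0.14 and -0.12 on the Peyer's patch capillary arrays, 0.11, -0.25, 0.03 and 0.04 on the peripheral HEC arrays and 0.48, 0.19 and 0.18 on the peripheral capillary arrays. The count depended on single arrays: it was 10 without Peyer's patch HEC array 1, Peyer's patch capillary array 2 or 3, or peripheral capillary array 1, it was 23 without Peyer's patch HEC array 3, and it was 3 without the capillary pair, where Ccna2 (adjusted p = 0.245) was among the calls lost.

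Immediate-early and heat shock genes, a rapid response to stress, were lower in HEC in both organs, with 22 of 26 called lower in Peyer's patches and 15 in peripheral nodes. Of the 26, 4 were more negative (Btg2, Atf3, Zfp36 and Fosb) and 0 more positive in limma (13 and 1 at an unadjusted p under 0.05), with a median interaction of -0.45. The called share was 15.4%, against 4.05% of all genes. Btg2 had an interaction of -1.14 ± 0.24 (SE; adjusted p = 0.00988), Atf3 of -1.0 ± 0.21 (SE; adjusted p = 0.0104) and Zfp36 of -0.66 ± 0.16 (SE; adjusted p = 0.0214). The count was 12 without Peyer's patch HEC array 3, 2 without Peyer's patch HEC array 1 or 2, Peyer's patch capillary array 2 or peripheral capillary array 2, and 0 without the capillary pair. There the adjusted p was 0.122 for Btg2, 0.0674 for Atf3 and 0.244 for Zfp36.

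Signalling and transcription lists showed scattered members. Among 26 guidance genes, 4 were more positive (Sema3c, Slit2, Sema3a and Sema3d) and 4 more negative (Epha4, Slit3, Unc5b and Efnb2), or 30.8% against 4.05% of all genes. Slit2, a secreted repellent, was higher in Peyer's patch than in peripheral HEC by 1.55 ± 0.14, with an interaction of 1.43 ± 0.21 (SE; adjusted p = 5.16e-04), while Epha4, an ephrin receptor, had an interaction of -1.55 ± 0.25 (SE; adjusted p = 0.00119). The guidance list had 5 called members without Peyer's patch HEC array 1 or Peyer's patch capillary array 2 or 3 and 5 without the capillary pair, where Sema3d (adjusted p = 0.463) was among the calls lost. Sema3d passed in 5 of 23 alternatives. Among 40 transcription factors, 3 were more positive (Nr2f2, Irx3 and Gata6) and 4 more negative (Gata2, Foxc1, Sox17 and Hoxb4), or 17.5% of the list. Gata2, a factor of endothelial and blood lineages, had an interaction of -1.27 ± 0.25 (SE; adjusted p = 0.00566). Foxc1, a forkhead factor of vessel development, had an interaction of -1.04 ± 0.28 (SE; adjusted p = 0.0471) and passed in 10 of 23 alternatives. The factor list had 11 called members without Peyer's patch HEC array 3 and 3 without the capillary pair, where the calls lost included Gata2 (adjusted p = 0.117) and Foxc1 (adjusted p = 0.321).

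Of 28 TGF-beta and BMP genes, 17.9% were called, against 4.05% of all genes, 3 more positive (Tgfb3, Bmpr1a and Tgfbr3) and 2 more negative. Fstl1, a secreted follistatin-like protein, was 1 of these, with HEC differences of -2.12 ± 0.16 in Peyer's patches and -0.28 ± 0.15 in peripheral nodes and an interaction of -1.84 ± 0.22 (SE; adjusted p = 7.36e-05). Bmp4, a morphogen, had an interaction of -1.03 ± 0.28 (SE; adjusted p = 0.0492) and Tgfb3, a TGF-beta ligand, of 0.94 ± 0.23 (SE; adjusted p = 0.0309), which passed in 9 of 23 and 13 of 23 alternatives. The list had 2 to 8 called members with any single array left out and 2, both more negative, without the capillary pair, where Tgfb3 (adjusted p = 0.147) was among the calls lost.

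Lymphotoxin receptor and NF-kB signalling maintains high endothelium, and 3 of its 22 listed genes were more negative and 0 more positive in limma (9 and 2 at an unadjusted p under 0.05), with a median interaction of -0.22. These were 13.6% of the list, against 4.05% of all genes. Map3k14, the NF-kB inducing kinase of the noncanonical branch, had HEC differences of -0.32 ± 0.08 in Peyer's patches and 0.44 ± 0.08 in peripheral nodes and an interaction of -0.77 ± 0.11 (SE; adjusted p = 5.14e-04). Ikbkb, a kinase of the canonical branch, had one of -0.85 ± 0.16 (SE; adjusted p = 0.00377), and Tnfrsf1b, a TNF receptor, one of -0.84 ± 0.19 (SE; adjusted p = 0.0188). The list had 8 called members without Peyer's patch HEC array 3 and 2 without the capillary pair, where the call of Tnfrsf1b (adjusted p = 0.135) was lost. Among 21 interferon-stimulated genes, Cxcl9 and Cxcl10 were more positive and Irf1, an interferon-induced transcription factor, was more negative at -0.77 ± 0.19 (SE; adjusted p = 0.0298), which passed in 14 of 23 alternatives. The called share of the interferon list was 14.3%. The call left without the capillary pair was that of Cxcl9, and the adjusted p of Irf1 was 0.105. Of 12 genes of MHC class II presentation, 0 were more positive and 2 more negative in limma (0 and 4 at an unadjusted p under 0.05), or 16.7% called.

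H2-Aa had an interaction of -0.84 ± 0.18 (SE; adjusted p = 0.0139) and H2-Eb1 one of -0.64 ± 0.17 (SE; adjusted p = 0.0371), both class II chains that were higher in HEC in peripheral nodes. H2-Aa passed in 22 of 23 alternatives, with -0.50 (adjusted p = 0.233) after quantile normalization, and H2-Eb1 in 11 of 23. The class II list had 1 to 4 called members with any single array left out, and without the capillary pair the call of H2-Eb1 (adjusted p = 0.129) was lost. B cells also carry class II, and of 12 B cell markers 2 were more negative (Fcer2a, the low-affinity IgE receptor, -1.17 ± 0.24 (SE; adjusted p = 0.0104), and Cxcr5, the receptor for CXCL13, -0.79 ± 0.14 (SE; adjusted p = 0.00369)). They were 16.7% of the B cell list, against 4.05% of all genes. The mean of the B cell markers was 0.19 to 0.27 on the Peyer's patch HEC arrays, -0.13 to -0.06 on the Peyer's patch capillary arrays, 0.56 to 0.80 on the peripheral HEC arrays and -0.09 to 0.14 on the peripheral capillary arrays, highest on all 4 peripheral HEC arrays, and its part in the class II values was not tested. The B cell list had 4 called members without peripheral capillary array 2.

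Of 35 secretory pathway genes 0 were called in either direction in limma (0 positive and 3 negative at an unadjusted p under 0.05, and 1 called without Peyer's patch HEC array 3), with a median interaction of -0.20, although 20 were higher in HEC in Peyer's patches and 21 in peripheral nodes. Of 25 genes of cholesterol and fatty acid synthesis, the desaturases Scd1 (1.44 ± 0.33 (SE; adjusted p = 0.0188)) and Scd2 (0.94 ± 0.16 (SE; adjusted p = 0.00179)) were more positive and Fads2, which desaturates polyunsaturated fatty acids, was more negative (-1.57 ± 0.23 (SE; adjusted p = 6.67e-04)), or 12% of the list against 4.05% of all genes. The call of Scd1 (adjusted p = 0.124) was lost without the capillary pair. Of 16 capillary fatty acid genes, Angptl4 was more positive, and Fabp5, a fatty acid binding protein, and Tcf15, a transcription factor of capillary lipid uptake, were more negative at -1.38 and -0.75, passing in 13 of 23 and 10 of 23 alternatives. The 3 were 18.8% of their list, which had 1 called member without Peyer's patch HEC array 1, Peyer's patch capillary array 3, peripheral HEC array 2 or peripheral capillary array 2 and 6 without Peyer's patch HEC array 3. Calls lost without the capillary pair included Fabp5 (adjusted p = 0.161) and Tcf15 (adjusted p = 0.291). Cd36, the fatty acid translocase, had large HEC differences of -4.92 ± 0.32 in Peyer's patches and -5.01 ± 0.30 in peripheral nodes and an interaction of 0.09 ± 0.43 (SE; adjusted p = 0.922).

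Of 21 junction genes, Cdh13, a cadherin without a cytoplasmic tail, was more positive (0.95 ± 0.23 (SE; adjusted p = 0.027), passing in 14 of 23 alternatives), and the connexins Gja5 and Gja4 were more negative, Gja4 at -1.03 ± 0.24 (SE; adjusted p = 0.0183). Of 12 caveolae and diaphragm genes, Ehd4 alone was called, at -0.73 ± 0.18 (SE; adjusted p = 0.0339), and it passed in 13 of 23 alternatives. Of 23 basement membrane genes and integrins, Itga3 (0.81 ± 0.21 (SE; adjusted p = 0.0344)) and Nid2 (0.69) were more positive. Itgb3 (-1.27 ± 0.30 (SE; adjusted p = 0.0215)) and Lama3, a laminin chain (-0.83 ± 0.18 (SE; adjusted p = 0.0154)), were more negative. Itga3 passed in 12 of 23 alternatives, Itgb3 in 18 and Lama3 in 19. The called shares were 14.3% of the junction list, 8.33% of the caveolae list and 17.4% of the basement membrane list, against 4.05% of all genes. Each of these lists changed its count of called members by more than 1.5 times when single arrays were left out, the junction list to 1 to 5, the caveolae list to 0 to 3 and the basement membrane list to 2 to 4. Calls lost without the capillary pair were those of Cdh13 (adjusted p = 0.284) and Gja4 (adjusted p = 0.179) among junction genes and of Itga3 (adjusted p = 0.123), Itgb3 (adjusted p = 0.154) and Lama3 (adjusted p = 0.153) among basement membrane genes and integrins.

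Markers of other cells moved with parts of the interaction. Of 13 pericyte and smooth muscle markers, 6 were more positive and 0 more negative in limma (Acta2, Myl9, Myh11, Rgs5, Notch3 and Cspg4; 8 and 1 at an unadjusted p under 0.05), with a median interaction of 0.78. The called share was 46.2%, against 4.05% of all genes. Acta2, smooth muscle actin, lay at -1.25, -1.18 and -1.48 in Peyer's patch HEC and 0.14, -0.60 and -0.36 in Peyer's patch capillary cells. The peripheral Acta2 values were -1.87, -2.29, -1.91 and -1.23 in HEC and 1.13, 1.51 and 0.72 in capillary cells. Peripheral capillary arrays were above all others, and the interaction of Acta2 was 1.91 ± 0.32 (SE; adjusted p = 0.00156). The contractile genes Myl9 and Myh11 had interactions of 1.62 ± 0.32 (SE; adjusted p = 0.00594) and 1.42 ± 0.22 (SE; adjusted p = 8.03e-04). The mean of the 13 markers was -0.74 to -0.50 on the Peyer's patch HEC arrays, -0.12 to 0.12 on the Peyer's patch capillary arrays, -0.83 to -0.72 on the peripheral HEC arrays and 0.39 to 1.04 on the peripheral capillary arrays, with peripheral capillary array 2 the highest of all at 1.04. The list had 3 called members without Peyer's patch HEC array 1 or 2 or Peyer's patch capillary array 2, and 2 without the capillary pair, where Myl9 (adjusted p = 0.0827) was among the calls lost. Its part in the other more positive genes that were high in peripheral capillary cells was not tested.

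**Figure D4:**
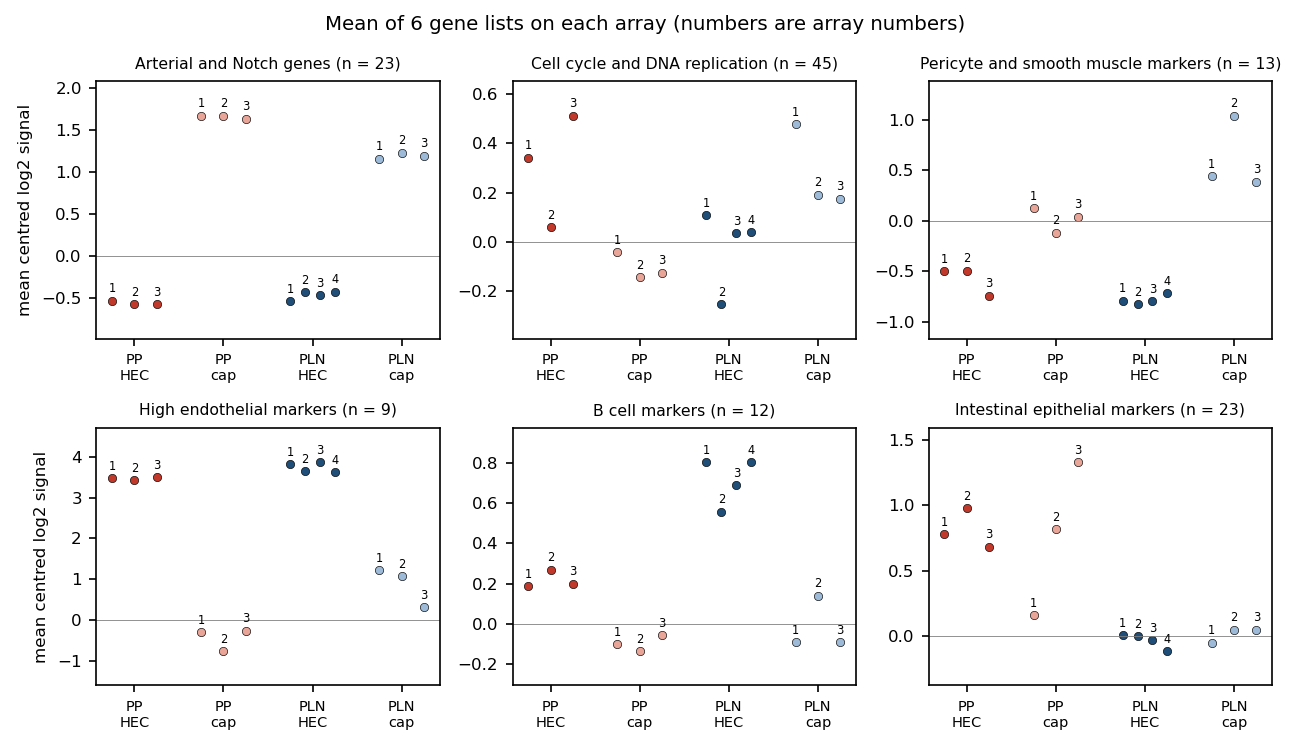
Mean centred log2 signal of 6 gene lists on each array, with array numbers beside the points and Peyer's patch groups left of peripheral groups. Peripheral capillary arrays 1 and 2 were above array 3 for high endothelial markers, and the intestinal epithelial markers were near 0 on all peripheral arrays and spread from 0.16 to 1.33 on the Peyer's patch capillary arrays.

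Intestinal epithelial markers averaged 0.68 to 0.98 on the Peyer's patch HEC arrays, 0.16 to 1.33 on the Peyer's patch capillary arrays, -0.11 to 0.01 on the peripheral HEC arrays and -0.05 to 0.05 on the peripheral capillary arrays. Of these 23 markers 1 was called, Agr2, a disulphide isomerase of mucus-secreting cells, at 1.48 ± 0.39 (SE; adjusted p = 0.0386), which passed in 8 of 23 alternatives. The list had 0 to 5 called members with any single array left out, 5 of them without Peyer's patch capillary array 1, which had the lowest epithelial mean of its group. Of 13 myeloid markers, 12 had positive interactions and 1 a negative one, with a median of 0.26. Cd14, the endotoxin co-receptor, was the 1 called gene, more positive at 1.10 ± 0.23 (SE; adjusted p = 0.0109). The myeloid mean was -0.01 to 0.19 in Peyer's patch HEC and -0.13 to -0.06 in Peyer's patch capillary cells. It was 0.09 to 0.35 in peripheral HEC and 0.09 to 0.62 in peripheral capillary cells. Of 11 fibroblastic reticular markers, 10 had positive interactions and 1 a negative one, with a median of 0.22. Among them only Col6a3, a collagen chain, was called, more positive at 0.69 ± 0.16 (SE; adjusted p = 0.0212). The array means of this list were 0.07 to 0.46 in peripheral capillary cells. Of 9 lymphatic markers, Sema3d and Stab2, a scavenger receptor of sinus endothelium, were more positive, Stab2 at 1.24 ± 0.21 (SE; adjusted p = 0.00221). The calls of Agr2 (adjusted p = 0.169) and Col6a3 (adjusted p = 0.167) and of both lymphatic markers, with an adjusted p of 0.0742 for Stab2, were lost without the capillary pair. Among 12 T and NK cell, 7 plasma cell and 6 enteric glia and nerve markers 0 were called in limma, with 2, 3 and 1 at an unadjusted p under 0.05. Of 15 pan-endothelial markers, Emcn was the 1 called gene. Called shares were 4.35% of the epithelial, 7.69% of the myeloid and 9.09% of the fibroblastic reticular markers. They were 22.2% of the lymphatic and 6.67% of the pan-endothelial markers, against 4.05% of all genes.

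The number of called genes depended on which arrays entered. It was 505 to 2921 with any single array of the 13 left out. The highest came without Peyer's patch HEC array 3, which lay farthest from array 2, and the lowest without Peyer's patch capillary array 2. All 808 genes were among the 2921, and none of the called genes shared with any of these single-array settings changed sign. Without peripheral capillary arrays 1 and 2, 357 genes were called, 339 of them among the 808.

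**Figure D5:**
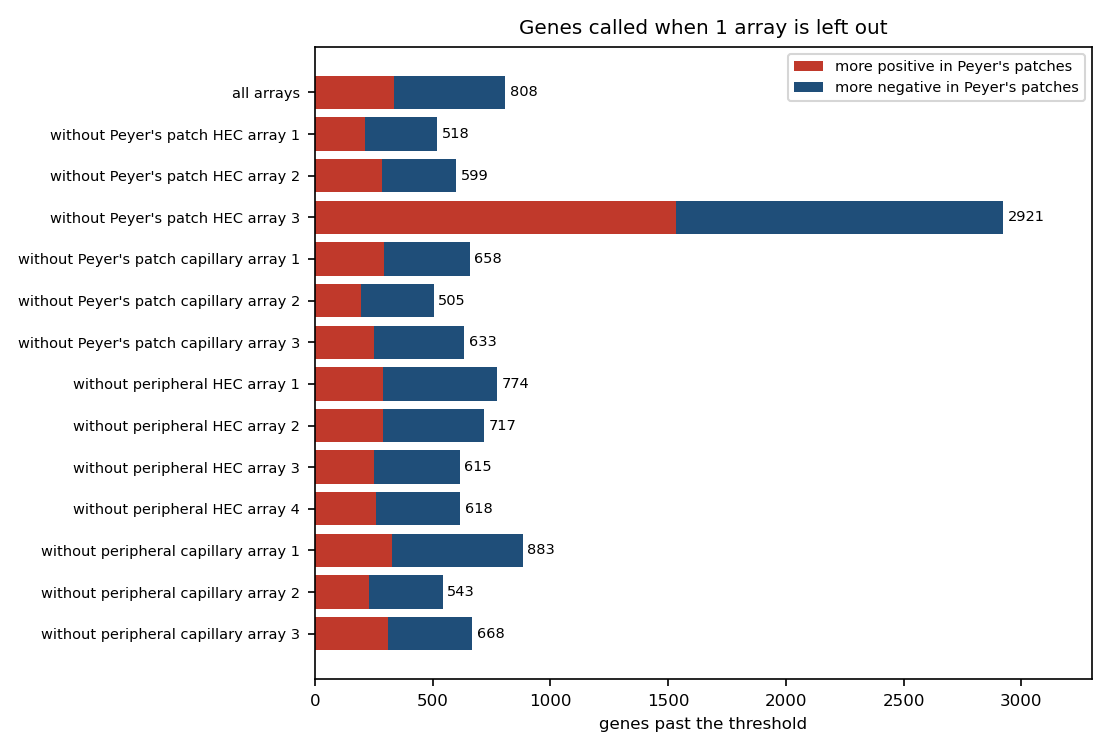
Genes called more positive (red) and more negative (blue) in Peyer's patches with all arrays and with each of the 13 arrays left out in turn. The total was 808 with all arrays and lay between 505 and 883 in every setting but the one without Peyer's patch HEC array 3, at 2921.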

How the data were processed

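Total RNA of sorted endothelial cells was hybridised to Affymetrix whole-transcript mouse arrays, per the labels. The deposited values are log2 signals that the authors made with RMA and Partek (named in the submitters' processing notes without a version). RMA subtracts background, normalises arrays by quantiles, summarises probes and compresses large folds. The deposited log2 values had also been centred for each probe set on a baseline that is not given in the sources used here, so level, detection and signal over background are unknown. There is no read depth, and precision is limited by the number of arrays.

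The platform annotation gave 1 symbol to 21789 of 28856 probe sets and several to 1621, and 5446 stayed unnamed here. Symbols were checked against RefSeq genes of GRCm38.p6 and 0 changed. The mean was taken over probe sets of the 999 genes with several, which left 19938 genes. Of 740 gene symbols in 38 lists, 694 were measured and the others were not analysed here. RefSeq promoter windows were found for 81 of 104 named genes.

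The interaction and its parts were contrasts of a single limma 3.58.1 model (R 4.3.3, lmFit, then eBayes) of the 19 arrays in 7 groups, which left 12 residual degrees of freedom. Two-sided p-values were corrected over all 19938 genes by the Benjamini-Hochberg method, and 0.05 was the threshold. The labels give no batch, slide or scan date. Plots were made in Python 3.11.15 using matplotlib 3.10.9. The steps were tested on simulated data.

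Named genes were the 15 most positive and 15 most negative interactions of at least 2-fold, up to 3 called members of each list, 5 genes in each direction with called and opposite HEC differences, and 12 fixed genes. Predicted genes, olfactory-type receptors, small RNAs and antigen receptor segments were not named. Remaining called list members were named after their values were seen. The comparison, the lists and the fixed genes were chosen with earlier results of these data known. Alternatives were 23 other settings of arrays, scaling, prior, probe set choice, filter and weights. Arrays with the same number in different groups did not regularly deviate together (18 pairs, correlation of deviations -0.397 to 0.482, 6 over 0.1), so the numbers were not taken to pair samples. Arrays 2 of Peyer's patch HEC, peripheral HEC and peripheral capillary cells did so, at 0.376 to 0.482, and the cause was not tested. Peyer's patch HEC array 3 and peripheral capillary array 1, of unlike number, reached 0.608.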

Additional observations from a re-analysis of the deposited data

Results flagged for a closer look

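The HEC difference differed between the organs in 808 genes by the interaction itself, and in the 10 genes below the HEC were past the threshold on opposite sides of capillary cells. The interaction was 3.43 for Gucy1a1, 2.46 for Lgals1, 1.75 for Emp3, 1.60 for Steap4 and 1.44 for Nusap1, which were higher in HEC in Peyer's patches and lower in HEC in peripheral nodes. It was -3.79 for Pdlim3, -2.57 for Lrrc3b, -2.84 for Chrm3, -2.29 for Mvb12b and -3.08 for Fmo2, which were the reverse.

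Of 104 named genes, 2 had an array far from the other 3 of the peripheral HEC group, and chance gives about 1 in 20. Fmo2 was at 0.00 on peripheral HEC array 1, against 0.66 to 0.76 on the other arrays. Btg2 was at -1.27 on peripheral HEC array 3, against -0.68 to -0.56 on the others.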

How the results depend on the processing

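With 808 called interactions (336 more positive, 472 more negative, 65 with opposite HEC differences), leaving out any single array gave 505 to 2921 called (198 to 1535 more positive, 306 to 1386 more negative, 44 to 160 opposite). The settings that moved the total by over 1.5 times were those without Peyer's patch HEC array 1 (518), Peyer's patch HEC array 3 (2921) and Peyer's patch capillary array 2 (505), and the more negative count was 314 without Peyer's patch HEC array 2 and 313 without peripheral capillary array 2. Without peripheral capillary arrays 1 and 2 the counts were 357, 122, 235 and 26, and with Peyer's patch HEC array 2 left out as well, a setting added after seeing the data, 338, 134, 204 and 33. Array quality weights gave 3994, 2175, 1819 and 318, with a weight of 4.37 on Peyer's patch HEC array 1 and of 0.31 and 0.28 on arrays 2 and 3, and the cause was not tested. A 2-fold minimum left 316, 134, 182 and 33. With a replicate block 705 genes were called (300, 405 and 69), which ended the call of 7 named genes. The 13 arrays alone gave 623, quantile normalization again 797, median centring 745, a robust prior 798, the probe set with the highest mean 787, a filter on range 743 and single probe sets 807. Of the 97 called named genes, 52 passed in all 23 settings, 45 did not pass in at least 1, and none reversed, while Gcnt1 passed in 1. The settings that leave 1 peripheral capillary array assume that it varies like the other groups.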
